A study of Mus musculus with 20 samples.

Results

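The 8 genes described here form a short signalling module in the mouse mammary gland: the kinase gene Jak2, the transcription factor genes Stat5a, Stat5b and Stat3, and the inhibitor genes Cish, Socs1, Socs2 and Socs3. They were taken by gene symbol from the array annotation, and all 8 had a probe set with that symbol alone, out of 19937 genes measured in this way. Where a gene had several such probe sets, which was so for Socs2 and Socs3, the one with the highest mean over the 20 arrays was used.

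The study compared sorted mammary epithelial cells of mice in which tamoxifen switched on a PIK3CA H1047R transgene with those of K8-creERT2 mice without it. PIK3CA is the catalytic subunit of the lipid kinase PI3K, and H1047R is an activating change. All animals had a mixed FVB/CD-1 background, carried the K8-creERT2 driver, which puts Cre under keratin 8 control in luminal cells, received tamoxifen and were examined 4 weeks later. Each array held RNA of 2000 cells from a pool of 2 to 3 estrus-synchronized mice, amplified before labelling, and pools came from 3 independent sortings. The cells were CD45-negative and fell into a luminal Sca1-negative gate, a luminal Sca1-positive gate (both CD24 high) and a basal gate (CD24 low, Sca1-negative).

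The mutant (K8-creERT2/PIK3CA H1047R) groups were GFP-positive, transgene-expressing cells: luminal Sca1-negative (3 arrays), luminal Sca1-positive (2 arrays, replicates 1 and 3) and basal (3 arrays). A further mutant group held GFP-negative basal cells (3 arrays), which do not express the transgene. The control (K8-creERT2) groups were GFP-negative cells of the 3 gates, with 3 arrays each. GFP-positive mutant cells were thus selected by GFP and control cells by its absence, in the luminal and basal gates alike. The transgene and the selection of cells in which Cre acted therefore cannot be told apart in any gate. This also holds for GFP-positive against GFP-negative basal cells. In the basal gate, the origin of GFP-positive cells, marked by a luminal driver, also cannot be told apart from the transgene.

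JAK-STAT signalling carries messages from cytokine and hormone receptors to the nucleus. In the mammary gland, prolactin binding to its receptor activates JAK2, which phosphorylates STAT5A and STAT5B, and these switch on milk protein genes and the alveolar regulator gene Elf5. STAT3 answers to LIF and other cytokines that signal through gp130, and it is known for driving cell death when the gland regresses after lactation. CISH and the SOCS proteins are induced by STATs and close a negative feedback loop on the receptors and kinases.

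As feedback inhibitors are known targets of STATs, the promoters of the members were searched for the spaced palindrome TTCNNNGAA, the core to which STAT dimers bind. The RefSeq promoter windows (GRCm38.p6, 250 bases before to 50 after an annotated start) covered 7 of the 8 members in 9 windows. The palindrome, which reads the same on both strands, lay in the windows of 2 members, Cish and Socs3, and in 8.3% of all 32851 windows. Cish held 2 copies, starting at bases 1 and 12 from the annotated start, and 0.457% of all windows held 2 or more. Socs3 held 1 copy, 154 bases before its start. With 1 more base in the gap, the motif was in 6.95% of all windows and in none of the members. In the 150 bases directly before the start, TTCNNNGAA was in 4.09% of windows and in neither Cish nor Socs3. A match is a description of letters and not evidence of binding. The stretches that hold the matches are shown because Cish and Socs3 are the inhibitors called below by the probe set of higher mean. Capitals mark the palindrome. The Cish stretch is chr9:107296559-107296678 on the plus strand, from 100 bases before to 20 after the start. The Socs3 stretch is chr11:117969437-117969556 on the minus strand, from 190 to 71 bases before the start.
Cish: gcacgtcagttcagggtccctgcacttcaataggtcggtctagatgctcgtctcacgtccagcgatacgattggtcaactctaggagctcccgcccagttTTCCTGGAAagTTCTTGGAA
Socs3: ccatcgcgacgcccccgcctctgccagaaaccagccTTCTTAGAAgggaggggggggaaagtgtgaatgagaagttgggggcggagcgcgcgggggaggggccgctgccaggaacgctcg

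In the RefSeq gene table of that build, Stat5b, Stat5a and Stat3 are consecutive protein-coding genes on chromosome 11, the chromosome that also carries Socs3. STAT5A and STAT5B are close paralogs, and whether their probe sets detect each other's transcripts was not tested. Cish lies on chromosome 9, Socs2 on chromosome 10, Socs1 on chromosome 16 and Jak2 on chromosome 19.

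The arrays were alike in their distribution, with medians of 3.66 to 3.80 on the log2 scale and correlations of 0.931 to 0.971 within groups across probe sets. Replicate 2 of GFP-positive basal cells and replicate 2 of control Sca1-positive luminal cells had the narrowest spread of values. Basal markers such as Krt5 and Krt14 averaged 9.06 to 9.63 over the 10-gene list in basal arrays and 4.34 to 5.24 in luminal arrays, and the 8-gene luminal list averaged 7.93 to 9.21 in basal arrays and 10.26 to 10.56 in luminal arrays, so the gates carried their labelled lineages. Markers of immune cells (Ptprc among them) averaged 3.25 to 3.57 in every group, below the array medians. Values below are log2 probe set levels, which compare arrays for the same gene and not one gene with another. Tests were moderated linear model tests (limma) over all 20 arrays, adjusted by Benjamini-Hochberg over 19937 genes, and a difference counts as a call at an adjusted p under 0.05. In pools of sorted cells, fewer cells that use a gene and less RNA per cell cannot be told apart.

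**Figure D1:**
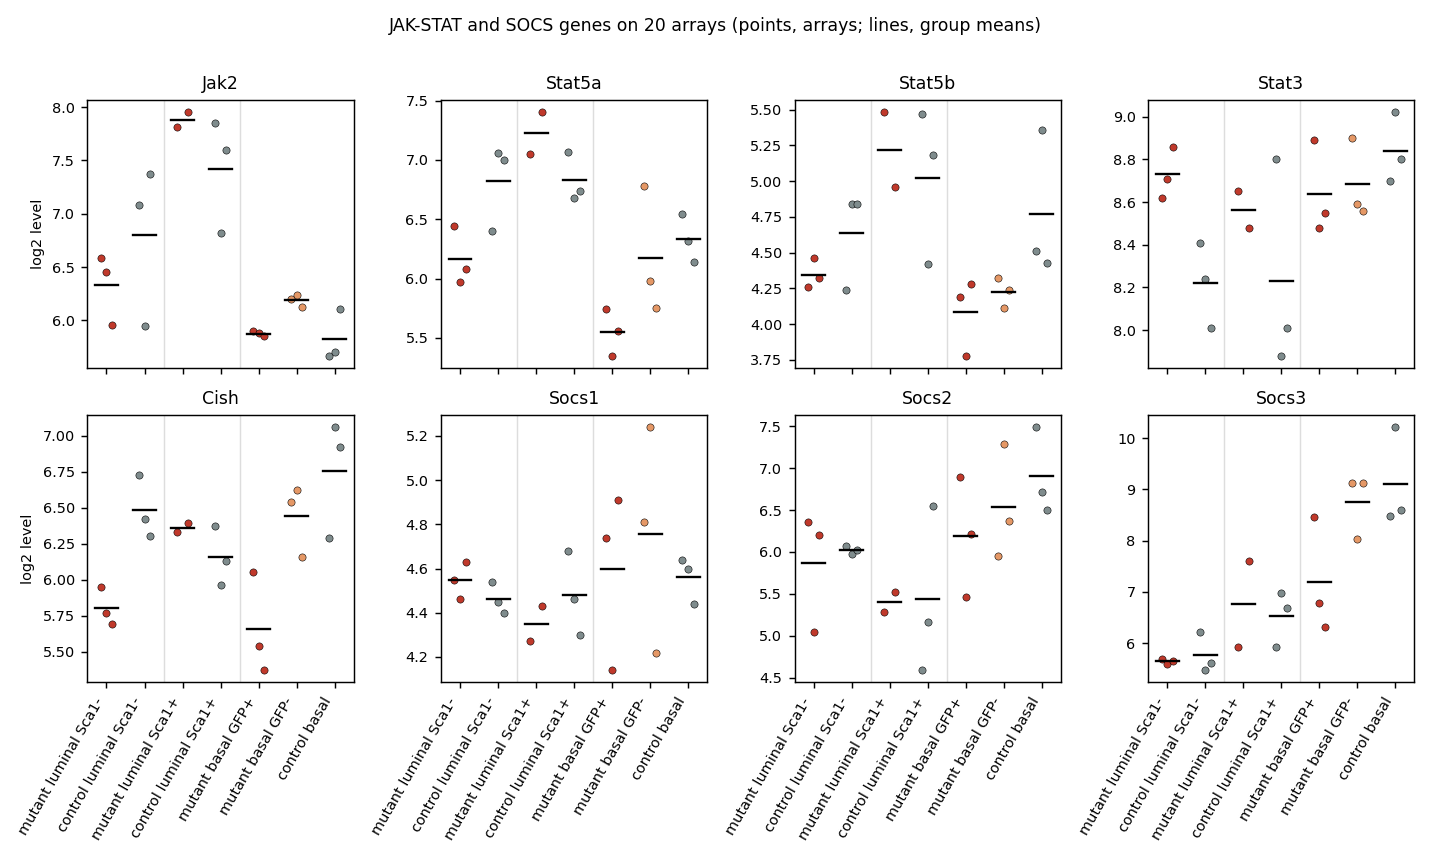
Log2 level (vertical axis, scale differs by panel) of the 8 members on every array, by sorted group (horizontal axis), with points for arrays and lines for group means. Jak2 was high in both Sca1-positive luminal groups, Socs3 was high in GFP-negative and control basal cells, and Cish was lowest in GFP-positive basal and mutant Sca1-negative luminal cells.

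Jak2, the kinase bound to the prolactin and growth hormone receptors, was highest in Sca1-positive luminal cells. Its levels were 7.81 and 7.95 in mutant Sca1-positive luminal arrays and 7.85, 6.82 and 7.60 in control arrays of that gate. In the Sca1-negative gate they were 6.59, 6.45 and 5.96 in mutant and 7.08, 5.95 and 7.37 in control cells. The control Sca1-negative arrays were widely spread, and replicate 2 lay below every mutant array of the gate. In basal cells Jak2 was at 5.90, 5.88 and 5.85 in GFP-positive, 6.20, 6.24 and 6.13 in GFP-negative and 5.67, 5.70 and 6.11 in control arrays. All basal arrays lay below the Sca1-positive luminal ones. In the order of the 7 group means, only GFP-negative over GFP-positive basal cells were neighbours whose arrays did not overlap.

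Stat5a, the main prolactin-responsive STAT of the gland, was highest in mutant Sca1-positive luminal cells, with 7.05 and 7.40, against 7.07, 6.68 and 6.74 in control cells of the gate. Mutant Sca1-negative luminal cells had 6.44, 5.97 and 6.08, against 6.40, 7.06 and 7.0 in control cells. In basal cells, GFP-positive arrays had 5.74, 5.35 and 5.56, GFP-negative arrays 6.78, 5.98 and 5.75, and control arrays 6.54, 6.32 and 6.14. GFP-positive basal cells were the lowest of all 7 groups, and their arrays lay below those of every other group.

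Stat5b, its paralog linked above all to growth hormone signalling, averaged 4.58 over the arrays, where the median of all values was 3.72. It was at 5.48 and 4.96 in mutant and 5.47, 4.42 and 5.18 in control Sca1-positive luminal cells, and at 4.26, 4.46 and 4.32 in mutant and 4.24, 4.84 and 4.84 in control Sca1-negative luminal cells. GFP-positive basal arrays had 4.19, 3.78 and 4.28, GFP-negative basal arrays 4.32, 4.11 and 4.24, and control basal arrays 4.51, 5.36 and 4.43. Both mutant basal groups lay below the control basal arrays without overlap, though control replicate 2 stood far above its group.

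Stat3 varied less between groups than the STAT5 genes, its group means spanning 0.62, against 1.67 for Stat5a and 1.14 for Stat5b. Mutant Sca1-negative luminal arrays had 8.62, 8.71 and 8.86, against 8.41, 8.24 and 8.01 in control arrays, with no overlap. Mutant Sca1-positive luminal arrays had 8.65 and 8.48, against 8.80, 7.88 and 8.01 in control arrays. In basal cells the levels were 8.89, 8.48 and 8.55 in GFP-positive, 8.90, 8.59 and 8.56 in GFP-negative and 8.70, 9.02 and 8.80 in control arrays, and these groups overlapped.

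Cish, an inhibitor that STAT5 induces and that binds phosphorylated receptors, was at 6.05, 5.54 and 5.37 in GFP-positive basal cells, 6.54, 6.62 and 6.16 in GFP-negative basal cells and 6.29, 7.06 and 6.92 in control basal cells. All GFP-positive arrays were below all other basal arrays. Mutant Sca1-negative luminal cells had 5.95, 5.77 and 5.69, against 6.73, 6.42 and 6.30 in control cells, again without overlap. Mutant Sca1-positive luminal cells had 6.33 and 6.39, against 6.37, 5.96 and 6.13 in control cells, and these overlapped. In the order of group means, control Sca1-positive over mutant Sca1-negative luminal cells was the only neighbouring pair with separate arrays.

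Socs3, the inhibitor that binds gp130 and limits STAT3 signalling, had the widest range of the 8 genes, with group means spanning 3.46. It was at 8.46, 6.78 and 6.32 in GFP-positive basal cells, 9.12, 8.03 and 9.13 in GFP-negative basal cells and 8.49, 10.22 and 8.59 in control basal cells. The GFP-positive group was split, its replicate 1 lying close to the lowest control array. Luminal levels were lower, at 5.69, 5.59 and 5.66 in mutant and 6.21, 5.47 and 5.62 in control Sca1-negative cells, and at 5.92 and 7.60 in mutant and 5.93, 6.98 and 6.68 in control Sca1-positive cells.

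Socs2, an inhibitor known for limiting growth hormone signalling, ran from 4.59 to 7.49 over the arrays, with group means highest in control basal cells (6.90 ± 0.52, SD, n = 3) and lowest in mutant Sca1-positive luminal cells (5.40 ± 0.18, SD, n = 2). Its replicates were widely spread, with an SD of 1.01 in control Sca1-positive luminal cells. Socs1, which blocks JAK kinase activity, ran from 4.14 to 5.24, and its group means spanned 0.41. No neighbouring pair of groups was separate for Socs1, Socs2, Socs3, Stat3 or Stat5b in the order of their means.

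GFP-positive basal cells had less Cish than control basal cells, while Socs3, Stat5a and Stat5b were lower on every array without passing the test. Cish averaged 5.65 ± 0.36 in GFP-positive and 6.76 ± 0.41 in control basal cells (SD, n = 3 each), a log2 difference of -1.10 (SE 0.21, 95% interval -1.54 to -0.66, limma adjusted p = 0.00545), or 2.15-fold lower. It was the only member called, 1 of 8, while 4.23% of all genes were called in this comparison and 1.91% were called lower. The call was lost when the model was fitted on these 6 arrays alone (adjusted p = 0.146). Socs3 differed by -1.91 (95% interval -3.13 to -0.69, adjusted p = 0.0799), Stat5a by -0.78 (-1.29 to -0.27, adjusted p = 0.0896) and Stat5b by -0.68 (-1.27 to -0.09, adjusted p = 0.221). Arrays of the groups did not overlap for these 4 genes, each lower in GFP-positive cells, against 11.4% of all genes that were lower without overlap. The members' median difference was -0.69, beside -0.032 over all genes. Socs2 differed by -0.71 (adjusted p = 0.551), and Jak2, Stat3 and Socs1 had differences between -0.20 and 0.05, with adjusted p of 0.711 or more.

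Socs3 depended on 1 array and on the probe set. Without replicate 1 of GFP-positive basal cells its difference from control was -2.55 (adjusted p = 0.0187). Its other probe set gave 7.30, 6.87 and 6.83 in GFP-positive, 8.56, 8.15 and 8.01 in GFP-negative and 8.46, 9.04 and 8.70 in control basal arrays. There the GFP-positive arrays formed a tight group below all others of the gate. In a fit over all 21640 single-symbol probe sets, this probe set was called against control basal cells (-1.73, 95% interval -2.24 to -1.22, adjusted p = 0.000398) and against GFP-negative basal cells (-1.24, -1.75 to -0.73, adjusted p = 0.00835). In that fit 4.21% of probe sets were called against control and 3.17% against GFP-negative cells. The direction was thus shared by both probe sets, and the call by 1 of them.

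**Figure D2:**
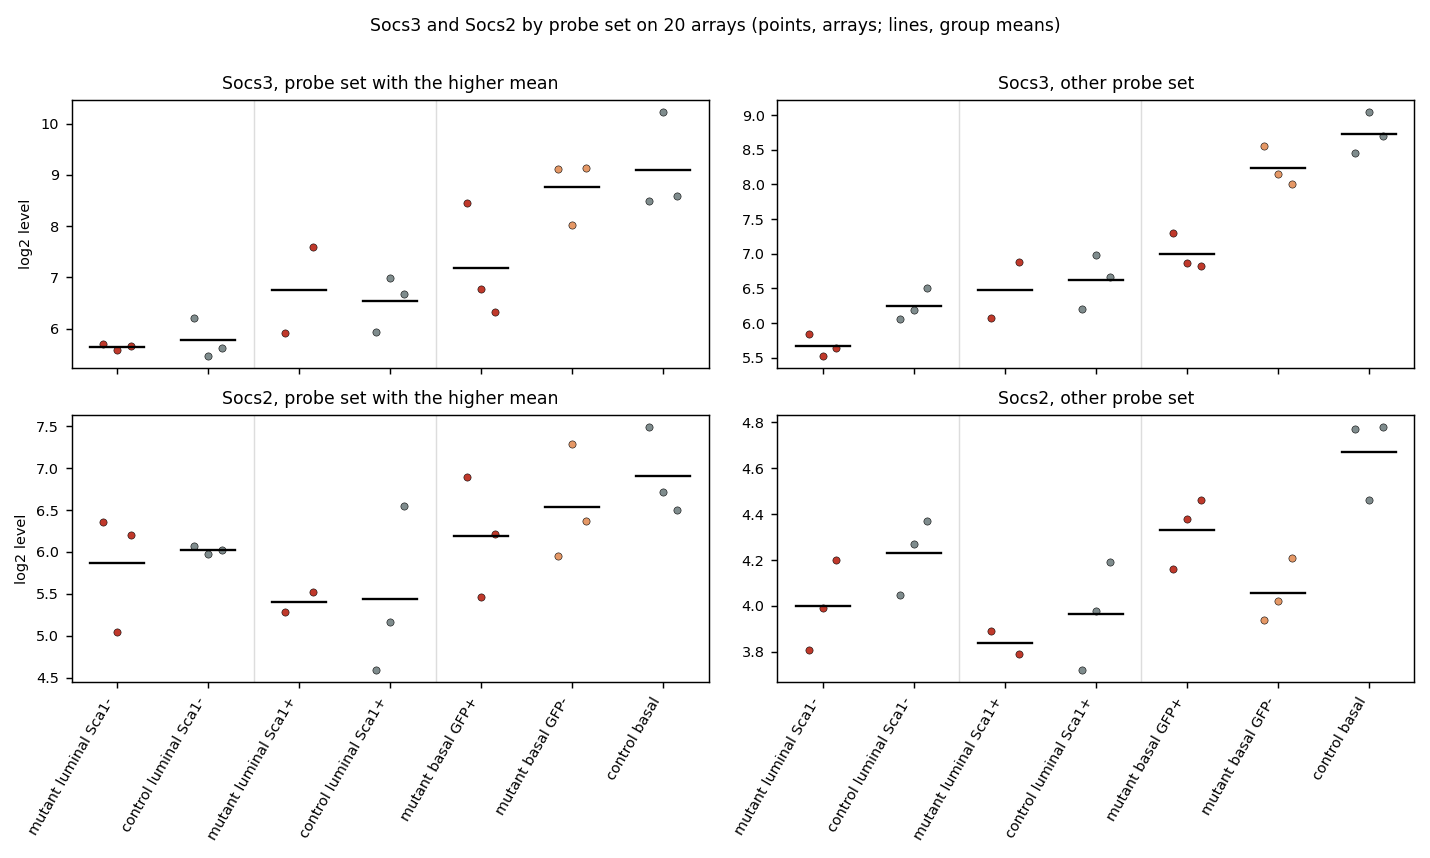
Log2 level (vertical axis, scale differs by panel) of each of the 2 single-symbol probe sets of Socs3 and Socs2 on every array, by sorted group (horizontal axis), with points for arrays and lines for group means. For Socs3 the other probe set puts GFP-positive basal arrays at 6.83 to 7.30, apart from GFP-negative (8.01 to 8.56) and control basal arrays (8.46 to 9.04), while in the probe set with the higher mean replicate 1 at 8.46 stands close to control.

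Within mutant glands, GFP-positive and GFP-negative basal cells were compared next. No member was called, while 3.25% of all genes were. All 8 estimates were below 0 with the probe sets of higher mean, with a median of -0.33 beside -0.008 over all genes. Those of Stat3 (-0.04), Stat5b (-0.14) and Socs1 (-0.16) were small, with intervals that included 0. The other probe set of Socs2 gave 0.28 (95% interval -0.02 to 0.58), against -0.35. With limma, 3 members had an unadjusted p under 0.05, and 13.5% of all genes did. Cish missed the threshold narrowly, with a log2 difference of -0.79 (SE 0.21, 95% interval -1.23 to -0.35, adjusted p = 0.0517). It passed without GFP-positive replicate 1 (-0.99, adjusted p = 0.0194) and without GFP-negative replicate 3 (adjusted p = 0.0383). Socs3 differed by -1.57 (-2.79 to -0.35, adjusted p = 0.199) and by -2.21 without GFP-positive replicate 1 (adjusted p = 0.0495), and Stat5a by -0.62 (-1.13 to -0.10, adjusted p = 0.244). Arrays did not overlap for Cish, Stat5a and Jak2, each lower in GFP-positive cells, against 7.96% of all genes.

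GFP-negative basal cells, which come from mutant mice but do not express the transgene, were also set against control basal cells. None of the 8 members was called (0.161% of all genes were). With the probe sets of higher mean, none had an unadjusted p under 0.05, against 9.69% of all genes. Differences ran from -0.54 for Stat5b to 0.36 for Jak2. Intervals still allowed sizeable differences, the lowest bound being -1.56 for Socs3 and the highest 1.01 for Jak2. The other probe set of Socs2 gave -0.61, with an interval that excluded 0 (95% interval -0.92 to -0.31, adjusted p = 0.129), against -0.36. Cish differed by -0.32 (95% interval -0.76 to 0.13, adjusted p = 0.679). These 3 basal comparisons share arrays, so they are not independent of each other.

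Markers of other epithelial states moved in the same basal comparison. Of 8 luminal markers, Krt18 (log2 difference 1.01, adjusted p = 0.0114) and Krt19 (1.48, adjusted p = 0.0388) rose in GFP-positive against control basal cells, and the list averaged 8.30 to 9.21 in GFP-positive and 7.93 to 8.61 in control arrays. Of 8 luminal progenitor markers, Elf5, Cd14 and Ehf rose, and the list averaged 7.09 to 7.66 in GFP-positive and 5.85 to 6.11 in control arrays. Of 6 measured hormone-sensing luminal markers, Tbx3 fell (-2.45, adjusted p = 8.78e-05). That list averaged 4.07 to 4.18 in GFP-positive and 4.53 to 4.72 in control arrays. Of 10 basal markers, Myh11 and Oxtr fell, and the list averaged 9.06 to 9.45 in GFP-positive and 9.53 to 9.63 in control arrays. In the endothelial list Cdh5 differed by -0.99 (adjusted p = 0.0345), and that list averaged 3.29 to 3.43 in GFP-positive and 3.49 to 4.14 in control arrays. The fibroblast gene Col1a2 (0.88, adjusted p = 0.0326) and the pericyte gene Cspg4 (0.72, adjusted p = 0.0319) rose, with their lists at 3.62 to 3.89 and 3.56 to 3.92 in GFP-positive arrays, against 3.6 to 3.81 and 3.53 to 3.64 in control arrays. The part of these shifts in the differences of Cish and Socs3 was not tested.

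In Sca1-negative luminal cells no member was called between mutant and control, while 1.9% of all genes were. With limma, 3 members had an unadjusted p under 0.05, and 11.2% of all genes did. Cish averaged 5.81 ± 0.13 in mutant and 6.48 ± 0.22 in control cells (SD, n = 3 each), a log2 difference of -0.68 (95% interval -1.12 to -0.23, adjusted p = 0.148). Weighting arrays by their quality brought it past the threshold (-0.67, adjusted p = 0.0407). Stat5a differed by -0.66 (-1.17 to -0.14, adjusted p = 0.264) and Stat3 by 0.51 (0.09 to 0.93, adjusted p = 0.301). The other probe set of Socs3 gave -0.59 (95% interval -1.10 to -0.08, adjusted p = 0.35), against -0.12. Stat3 was higher, and Cish lower, in every mutant array than in any control array, and 22.6% of all genes were separate in one direction or the other. In the same comparison 5 of 6 measured hormone-sensing markers fell, Pgr (the progesterone receptor gene) by 2.65 on the log2 scale, and the list averaged 5.34 to 5.61 in mutant and 7.18 to 7.58 in control arrays. Their part in the members' differences was not tested.

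In Sca1-positive luminal cells, where the mutant group had 2 arrays, no member was called, 0.226% of all genes were called, and no member had an unadjusted p under 0.05 (8.96% of all genes did). Differences lay between -0.13 for Socs1 and 0.46 for Jak2, with 95% intervals reaching from -1.22 to 1.60 over the 8 genes. Cish differed by 0.21 (95% interval -0.28 to 0.70, adjusted p = 0.819). The groups overlapped for all 8 members, while 28.6% of all genes were separate. Of the 10 basal markers Krt5 rose in this gate (2.14, adjusted p = 0.00223), and the list averaged 4.85 to 5.24 in mutant and 4.34 to 4.59 in control arrays. The progenitor marker Lcn2 also rose (1.82, adjusted p = 0.000857).

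**Figure D3:**
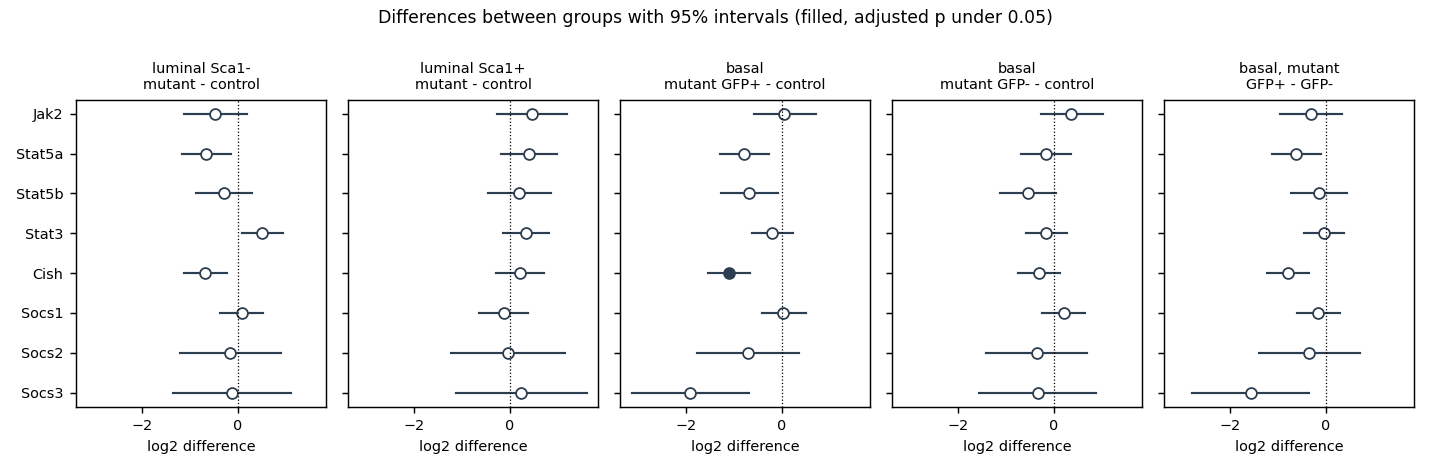
Log2 difference (horizontal axis) of the 8 members (vertical axis) in the 5 comparisons by genotype or GFP, with points for estimates and lines for 95% intervals. Filled points mark an adjusted p under 0.05, which only Cish reached, in GFP-positive against control basal cells.

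Whether the mutant effect, the difference between GFP-positive mutant and control cells of a gate, itself differed between gates was tested with interaction terms. In the basal gate this effect cannot be told apart from the origin of cells marked by a luminal driver. Cish came closest in basal against Sca1-positive luminal cells, where the basal effect minus the luminal effect was -1.31 (95% interval -1.97 to -0.65, adjusted p = 0.0585). It passed without control basal replicate 1 (-1.55, adjusted p = 0.0142) and without GFP-positive basal replicate 1 (-1.51, adjusted p = 0.023). None of the 8 members was called in this interaction, in which 1.09% of all genes were, and 3 had an unadjusted p under 0.05 (10.2% of all genes did). For Socs3 the same interaction was -2.14 (adjusted p = 0.38), and -1.59 with its other probe set (adjusted p = 0.0458, with 1.05% of probe sets called). Basal against Sca1-negative luminal effects also gave 0 member calls (1.55% of all genes were called), with Socs3 at -1.79 (adjusted p = 0.463) and Stat3 at -0.71 (adjusted p = 0.344), these 2 having an unadjusted p under 0.05 (10.2% of all genes did). Sca1-positive against Sca1-negative luminal effects gave 0 calls (0.14% of all genes), with Stat5a at 1.05 (adjusted p = 0.509) and Cish at 0.89 (adjusted p = 0.533), again 2 members with an unadjusted p under 0.05 (5.66% of all genes).

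Among control cells, the lineages differed in the inhibitor Socs3 and the kinase Jak2. Socs3 averaged 9.10 ± 0.97 in basal, 6.53 ± 0.54 in Sca1-positive luminal and 5.77 ± 0.39 in Sca1-negative luminal control cells (SD, n = 3 each). It was higher in basal cells by 3.33 against Sca1-negative (SE 0.57, 95% interval 2.11 to 4.55, adjusted p = 0.000973) and by 2.57 against Sca1-positive luminal cells (SE 0.57, 1.35 to 3.79, adjusted p = 0.00637). Its other probe set gave 2.48 and 2.12 (adjusted p = 3.36e-06 and 1.32e-05). Jak2 averaged 5.83 ± 0.25 in basal and 7.42 ± 0.53 in Sca1-positive luminal control cells (SD, n = 3 each), a difference of -1.60 (SE 0.30, -2.24 to -0.95, adjusted p = 0.00175). Against Sca1-negative luminal cells Jak2 differed by -0.97 (adjusted p = 0.0549), and by -1.40 without Sca1-negative replicate 2 (adjusted p = 0.00183).

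The called members in controls were thus 1 of 8 for basal against Sca1-negative luminal cells, where 9.89% of all genes were called, and 2 of 8 for basal against Sca1-positive luminal cells, where 12.3% were. Stat3 was higher in basal cells by 0.62 and 0.61 without passing (adjusted p = 0.0632 against Sca1-negative and 0.0597 against Sca1-positive luminal cells). Socs2 differed by 1.47 against Sca1-positive luminal cells (95% interval 0.41 to 2.52, adjusted p = 0.0695). Its dimmer other probe set, at 4.46 to 4.78 in basal and 3.72 to 4.19 in Sca1-positive luminal control arrays, gave 0.71 (adjusted p = 0.00303, with 11.9% of probe sets called). No member was called between the 2 luminal gates of controls (0.762% of all genes were called, and no member had an unadjusted p under 0.05, against 7.84% of genes). The widest interval there, for Socs3, ran from -0.46 to 1.98.

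Among GFP-positive mutant cells, the kinase and both STAT5 genes were lower in the basal than in the Sca1-positive luminal gate. Basal cells minus cells of that gate gave log2 differences in Jak2 of -2.0 (SE 0.34, 95% interval -2.72 to -1.28, adjusted p = 0.000778), in Stat5a of -1.67 (SE 0.27, -2.25 to -1.10, adjusted p = 0.000513) and in Stat5b of -1.14 (SE 0.31, -1.79 to -0.48, adjusted p = 0.025). These were 3 of 8 members, with 10.7% of all genes called. The Stat5b call was lost without GFP-positive basal replicate 2 (-0.98, adjusted p = 0.0962) and without mutant Sca1-positive replicate 1 (-0.87, adjusted p = 0.268). Cish differed by -0.71 (adjusted p = 0.0669). All 6 measured hormone-sensing markers were called lower in these basal cells (median difference -4.07). In controls 5 of 6 were called lower between the same gates (median -3.96). The part of these markers in the members' differences was not tested.

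Mutant Sca1-positive luminal cells were higher than mutant Sca1-negative ones in Jak2 by 1.55 (SE 0.34, 95% interval 0.83 to 2.27, adjusted p = 0.0141) and in Stat5a by 1.06 (SE 0.27, 0.49 to 1.64, adjusted p = 0.0362), 2 of 8 members where 4.08% of all genes were called. Stat5b differed by 0.87 without passing (adjusted p = 0.172). Both calls rested on few arrays. The Jak2 call was lost without mutant Sca1-negative replicate 3 (adjusted p = 0.0662), Sca1-positive replicate 1 (adjusted p = 0.0801) or Sca1-positive replicate 3 (adjusted p = 0.137). For Stat5a it was lost without mutant Sca1-negative replicate 2 (adjusted p = 0.129) or 3 (adjusted p = 0.111), or Sca1-positive replicate 1 (adjusted p = 0.091) or 3 (adjusted p = 0.347). Leaving out the pair of arrays with the narrowest spread, neither of which is in these groups, gave Stat5a an adjusted p of 0.0535. Between these mutant gates all 6 measured hormone-sensing markers were called higher in Sca1-positive cells, with a median difference of 2.40. Between the control luminal gates 0 of 6 were called (median 0.68). The part of this shift in the Jak2 and Stat5a differences was not tested.

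Socs3, higher in basal than in luminal control cells, was not called between mutant basal and luminal cells with the probe set of higher mean. It differed by 1.54 between GFP-positive basal and mutant Sca1-negative luminal cells (95% interval 0.32 to 2.77, adjusted p = 0.122), a comparison with 0 member calls, 9.59% of all genes called, and 2 members (19.5% of all genes) with an unadjusted p under 0.05. Its other probe set gave 1.34 (adjusted p = 0.00149, with 9.51% of probe sets called). Against mutant Sca1-positive luminal cells it differed by 0.43, and by 0.52 with the other probe set (adjusted p = 0.785 and 0.295).

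**Figure D4:**
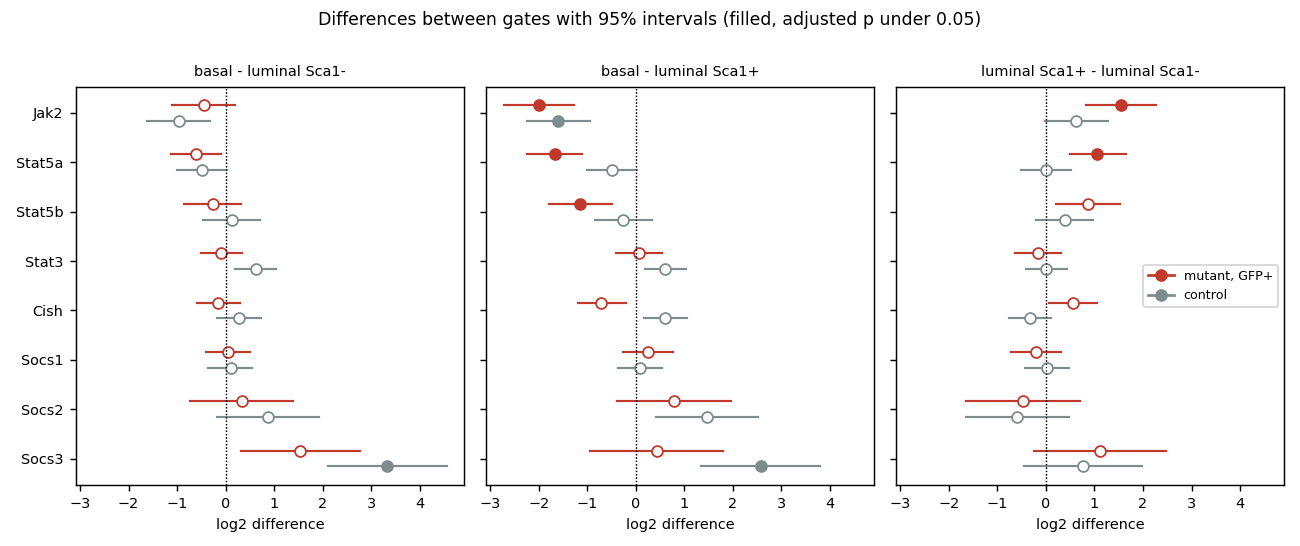
Log2 difference (horizontal axis) of the 8 members (vertical axis) between gates, in GFP-positive mutant cells (red) and control cells (grey), with points for estimates, lines for 95% intervals and filled points for an adjusted p under 0.05. Socs3 in basal over luminal cells was filled in controls only (3.33 and 2.57), Stat5a and Stat5b in mutants only. Whether these gate differences differed by genotype is given by the interactions, in which no member was called with the probe sets of higher mean.

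Cytokine and hormone receptors, which stand upstream of the 8 genes, were compared as a list. Of 17 receptor genes and chains measured, out of 20 listed, GFP-positive against control basal cells showed 1 rise and 2 falls. In this comparison 4.23% of all genes were called. Lifr, the LIF receptor gene, was at 7.24, 7.59 and 7.62 in GFP-positive, 9.32, 9.25 and 9.02 in GFP-negative and 9.89, 9.61 and 9.62 in control basal arrays. All GFP-positive arrays were more than a log2 unit below the other basal arrays. It fell by 2.22 against control (SE 0.14, adjusted p = 1.18e-07) and by 1.71 against GFP-negative cells (SE 0.14, adjusted p = 2.83e-06). In control cells Lifr averaged 8.03 in Sca1-negative luminal, 8.61 in Sca1-positive luminal and 9.71 in basal cells. The part of the marker shifts in its basal differences was not tested. Il6st, which encodes gp130, the chain shared by LIF and IL-6 receptors, was at 8.60, 8.44 and 8.76 in GFP-positive, 9.06, 8.88 and 9.20 in GFP-negative and 9.75, 9.62 and 9.49 in control basal arrays. It fell by 1.02 against control (SE 0.17, adjusted p = 0.00179) and lay between the other groups in GFP-negative cells, where the difference from control was -0.57 (adjusted p = 0.234).

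Ghr, the growth hormone receptor gene, moved the other way. It was at 7.62, 7.17 and 6.94 in GFP-positive, 6.87, 6.18 and 6.02 in GFP-negative and 5.89, 5.79 and 5.09 in control basal arrays. Arrays of the 3 groups did not overlap, but those at 6.94 and 6.87 lay close. GFP-positive cells were higher than control by 1.65 (SE 0.29, adjusted p = 0.00318). They were not called against GFP-negative cells, with a difference of 0.88 (SE 0.29, adjusted p = 0.139). GFP-negative cells themselves differed from control by 0.77, also without a call (SE 0.29, adjusted p = 0.383). The oncostatin M receptor gene Osmr differed by -0.20 in GFP-positive against control basal cells (adjusted p = 0.696). The prolactin receptor gene was not analysed here. The median difference of the receptor list between GFP-positive and control basal cells was -0.07, beside -0.032 over all genes.

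In Sca1-negative luminal cells Lifr was at 5.81, 5.28 and 5.59 in mutant and 8.04, 8.11 and 7.93 in control arrays, groups that were far apart. It was the only receptor called (1.9% of all genes were), with a difference of -2.47 (SE 0.14, adjusted p = 1.13e-07), and Il6st differed by -0.66 (adjusted p = 0.0604). Without control Sca1-negative replicate 2 the count was 2 receptors. In Sca1-positive luminal cells none of the 17 was called, and none was called between GFP-negative and control basal cells.

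Of 14 ligand genes, 1 was called in the 5 comparisons by genotype or GFP. Lif, whose product activates STAT3 in the regressing gland, was at 8.08, 6.57 and 7.23 in GFP-positive and 4.67, 4.06 and 6.26 in GFP-negative basal arrays, and at 4.74, 6.74 and 5.51 in control basal arrays. GFP-positive arrays were above all GFP-negative ones but overlapped with control. It rose by 2.30 against GFP-negative cells (SE 0.53, adjusted p = 0.0245), where 3.25% of all genes were called. In control cells Lif averaged 8.92 in Sca1-negative luminal, 7.99 in Sca1-positive luminal and 5.67 in basal cells. The part of the marker shifts of GFP-positive basal cells in the Lif difference was not tested. The Lif call was lost without GFP-positive replicate 1 or 3 or without GFP-negative replicate 1 or 2. Over these alternatives and the others tried, its adjusted p ran from 0.00317 to 0.261. Against control basal cells no ligand was called, but 1 was without control replicate 2. The kinases and STATs outside the 8 members (5 measured of 7 listed, Jak1, Tyk2, Stat2, Stat4 and Stat6) gave 0 calls in these 5 comparisons, and Jak1 differed by -0.07 to 0.30. Stat6, the mediator of IL-4 signals, differed by 0.66 (adjusted p = 0.151) and 0.71 (adjusted p = 0.309) in the Sca1-negative and Sca1-positive luminal comparisons. The count became 1 without mutant Sca1-negative replicate 3 in the first of these, and without mutant Sca1-positive replicate 1 in the second. Another 14 negative regulators, among them Socs4 to Socs7 and the phosphatase genes Ptpn1, Ptpn2, Ptpn6 and Ptpn11, also gave 0 calls. In GFP-positive basal cells this became 1 call against control without control replicate 1, and 1 call against GFP-negative cells without GFP-negative replicate 1, GFP-positive replicate 2 or GFP-positive replicate 3.

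Genes known as targets or partners of STAT5 in the gland include the milk proteins and Elf5. Of 16 such genes, 5 rose and 1 fell in GFP-positive against control basal cells (4.23% of all genes were called), with a median difference of 0.60 beside -0.032 over all genes. As this list was chosen with earlier results of these data known, its counts and median are a description and not a test. The casein gene Csn2 rose by 5.18 (adjusted p = 0.0116), Csn1s1 by 4.61 (adjusted p = 0.00157), the whey acidic protein gene Wap by 2.98 (adjusted p = 0.00955) and Elf5 by 1.84 (adjusted p = 0.0227). Named after their values were seen, the repressor gene Bcl6 also rose (1.72, adjusted p = 0.00163) and Tnfsf11, which encodes RANKL, fell (-0.37, adjusted p = 0.0295). Elf5 was at 7.01, 4.83 and 5.36 in GFP-positive and 4.17, 3.69 and 3.83 in control basal arrays. Replicate 1 of the GFP-positive cells, the array highest in Socs3 and Cish of its group, was also the highest in Elf5 and in Wap (8.32, against 5.42 and 6.01 in the other replicates). The count of 6 was 3 without control basal replicate 3. With only the compared arrays the calls of Csn2 (adjusted p = 0.0703), Wap (adjusted p = 0.151) and Elf5 (adjusted p = 0.229) were lost, and that of Elf5 also without control replicate 2 or 3 or GFP-positive replicate 1. Elf5 is also one of the luminal progenitor markers, and the part of the marker shifts given above in these differences was not tested.

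In Sca1-negative luminal cells 3 of the 16 rose in mutants, where 1.9% of all genes were called. They were Wap by 4.85 (adjusted p = 0.000357), the connexin gene Gjb2 by 2.28 (adjusted p = 0.045) and Elf5 by 2.23 (adjusted p = 0.0113). The Gjb2 call was lost on leaving out any 1 of the 6 compared arrays (adjusted p up to 0.177), and that of Elf5 without mutant replicate 1 or control replicate 1 or 2, which left a count of 1. In Sca1-positive luminal cells Wap rose by 4.26 (adjusted p = 0.014), the only call, which was lost without either mutant array (the count was 2 without control replicate 3). The part of the Krt5 and Lcn2 shifts in this difference was not tested. Against GFP-negative basal cells, where 3.25% of all genes were called, GFP-positive cells showed 2 rises, Csn1s2a (4.62, adjusted p = 0.0455) and Elf5 (1.94, adjusted p = 0.0205). The Csn1s2a call was lost on leaving out any 1 of the 6 compared arrays (adjusted p up to 0.141), and that of Elf5 with only the compared arrays (adjusted p = 0.271) and without GFP-positive replicate 1 or GFP-negative replicate 1 or 3. The count was 0 without GFP-positive replicate 1 and 1 without GFP-positive replicate 3 or GFP-negative replicate 1 or 2.

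Genes linked to STAT3 in acute-phase and involution responses moved in both directions. Their list was chosen with earlier results of these data known, so its counts and medians are a description and not a test. Of 16, 7 rose and 4 fell in GFP-positive against control basal cells, 4 rose and 2 fell in mutant Sca1-negative luminal cells, and 5 rose in mutant Sca1-positive luminal cells. The shares called over all genes were 4.23%, 1.9% and 0.226%, and the list's median differences were 0.51, 0.58 and 1.14, beside -0.032, -0.029 and -0.051 over all genes. The serum amyloid gene Saa1 was called in all 3 of these comparisons (6.37, 7.12 and 5.71), as was Saa2 (5.14, 6.42 and 4.38), while the fibrinogen gene Fgg fell by 2.53 in GFP-positive basal cells (adjusted p = 0.0184) and by 3.36 in mutant Sca1-negative luminal cells (adjusted p = 0.00487). Haptoglobin (Hp) rose by 3.85 in GFP-positive basal cells (adjusted p = 0.000706). The other falls there were Bcl3 (-2.02, adjusted p = 0.0239), Cebpd (-1.73, adjusted p = 0.005), a transcription factor gene of involution, and Junb (-0.60, adjusted p = 0.0145). In mutant Sca1-negative luminal cells the 4 rises were Saa1, Saa2, Hp and Lrg1 and the falls Fgb and Fgg, and in mutant Sca1-positive luminal cells the 5 rises were Saa1, Saa2, Igfbp5, Lrg1 and Lcn2. Cebpd, Junb and Lcn2 are named after their values were seen. Cd14, one of the 7 rises in basal cells, and Lcn2 are also luminal progenitor markers, whose rises are given above. Hp averaged 4.38 in control basal cells, 7.76 in control Sca1-negative and 7.55 in control Sca1-positive luminal cells. The part of the marker shifts in the differences of this list was not tested. Bcl3, which encodes a co-regulator of NF-kappaB, was at 5.54, 4.52 and 4.66 in GFP-positive and 7.46, 5.55 and 7.22 in GFP-negative basal arrays and fell by 1.84 (adjusted p = 0.0485). GFP-positive against GFP-negative cells gave 5 rises (Saa1, Saa2, Hp, Igfbp5 and Lrg1) and 2 falls, the second being Cebpd (-1.48, adjusted p = 0.0172). There 3.25% of all genes were called. The Fgg call in basal cells was lost in 5 of 13 alternatives, that of Bcl3 against GFP-negative cells in 7 of 13 and that of Lrg1 in Sca1-positive luminal cells in 7 of 12. The basal count of 11 against control was 7 without GFP-positive replicate 1 or 3. Between GFP-negative and control basal cells no gene of the STAT5 or STAT3 list was called, but 1 STAT3-linked gene was without GFP-negative replicate 2.

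**Figure D5:**
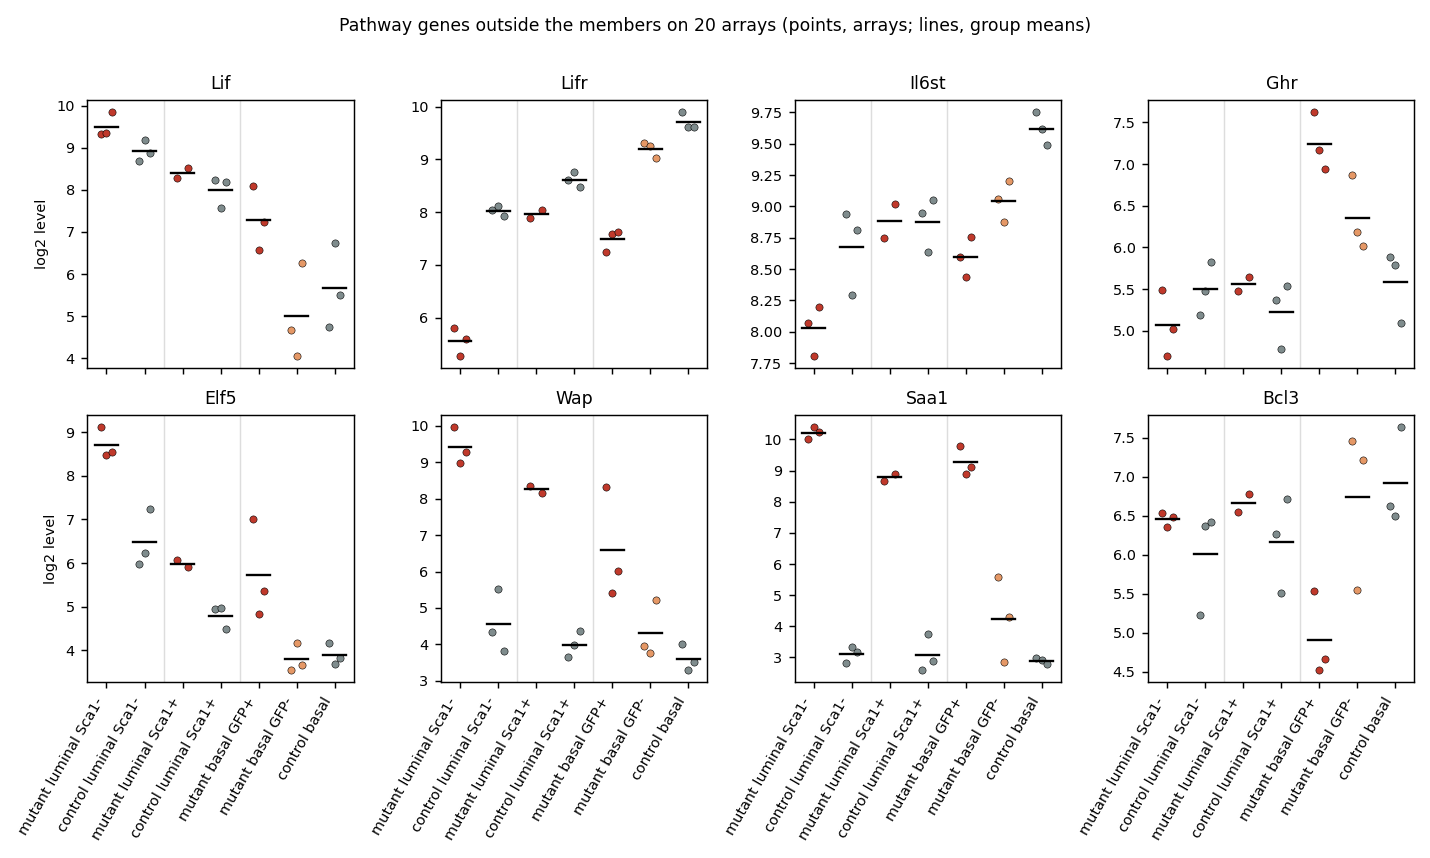
Log2 level (vertical axis, scale differs by panel) of 8 pathway genes outside the members on every array, by sorted group (horizontal axis), with points for arrays and lines for group means. Lifr is lower in GFP-positive basal arrays (7.24 to 7.62) than in GFP-negative and control ones, Ghr is higher there (6.94 to 7.62), and Saa1 is high in all 3 GFP-positive groups.

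For Cish, the member called by genotype, the genes with the most similar pattern over the 20 arrays were sought among 4160 genes whose group means spanned at least 1 log2 unit. They were Tbx3, a T-box repressor gene and one of the listed hormone-sensing markers (Pearson r = 0.77), the epiplakin gene Eppk1 (r = 0.76) and the neuropeptide W gene Npw (r = 0.75). Without the 2 arrays farthest from the median of Cish, these values were 0.75, 0.73 and 0.63, and the genes ranked 3, 7 and 36, so the order of likeness rests on those arrays. The arrays share their groups and sortings, so r describes a shared pattern over groups and carries no p. Tbx3 itself differed by -2.45 in GFP-positive against control basal cells (adjusted p = 8.78e-05) and by -1.58 in mutant against control Sca1-negative luminal cells (adjusted p = 0.00844), the comparisons in which Cish had its lowest values. As Tbx3 was picked for its likeness to Cish on these same arrays, its differences add no separate support. In control cells Tbx3 averaged 6.80 in basal, 6.95 in Sca1-positive luminal and 6.44 in Sca1-negative luminal cells.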

How the data were processed

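Expression was measured on 20 single-channel Affymetrix mouse gene arrays. The authors deposited log2 probe set values, 1 column for each array. They ran from 1.98 to 13.07, which is where the unit was read, and were used as they stand. Per the submitters' processing notes, affy was used; how values were normalized and on which genome build is not given in the sources used here. Of 34760 probe sets, 21640 had a single symbol, 1321 several, and 11799 were not listed; the single-symbol sets gave 19937 genes by highest mean, with no filter on low values. All 14 comparisons (5 by genotype or GFP, 6 between gates, 3 interactions) came from 1 model of 7 group means in limma 3.58.1 (R 4.3.3; lmFit, contrasts.fit, eBayes), adjusted by Benjamini-Hochberg within each comparison and tested on simulated data. P-values measure the spread between pools of mice, and the number of arrays limits precision. The members, lists and tests were chosen with earlier results of these data known. Beside the members and markers, up to 4 called genes of largest difference per pathway list and comparison could be named, with Ghr, Jak1, Stat6, Il6st, Osmr and Elf5 in any case, and 3 genes of similar pattern for each member called by genotype. Promoters came from RefSeq (GRCm38.p6), whose table held 21553 of the single-symbol probe sets. Alternatives were quantile normalization, a filter on dim genes, the mean of a gene's probe sets, array weights, only the compared arrays, the replicate number as a block, leaving out each array and, chosen after seeing the data, the other probe set and leaving out the pair of arrays with the narrowest spread.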

Additional observations from a re-analysis of the deposited data

Results flagged for a closer look

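Mutant effects on genes of the pathway and marker lists differed between gates by limma's interaction test over 19937 genes. Those on the 8 members did not pass it with the probe sets of higher mean. The other probe set of Socs3 passed in basal against Sca1-positive luminal cells (-1.59, adjusted p = 0.0458), and Cish came close there (adjusted p = 0.0585). The Lifr effect was higher by 1.81 in Sca1-positive than in Sca1-negative luminal cells (SE 0.21, adjusted p = 0.00174), and the effect in GFP-positive basal minus that in Sca1-positive luminal cells was -1.57 (SE 0.21, adjusted p = 0.000965). For Ghr, the receptor gene that rose in GFP-positive basal cells, the basal effect exceeded the Sca1-negative luminal one by 2.08 (SE 0.41, adjusted p = 0.0158). For the fibrinogen gene Fgb that difference was 3.17 (SE 0.55, adjusted p = 0.00658), Fgb having fallen by 3.73 in mutant Sca1-negative luminal cells. In the same comparison the effects differed by -2.10 for Cebpd (adjusted p = 0.0278) and 1.71 for Hif1a (adjusted p = 0.0333). The hormone-sensing markers Pgr, Foxa1 and Prom1 differed there by 2.39, 2.35 and 2.01 (adjusted p = 0.00735, 0.0366 and 0.0148). Low basal levels limit the reading of Fgb and these markers, as they left little room for a fall. Fgb averaged 3.85 in GFP-positive and 4.41 in control basal cells, where the median of all values was 3.72. The hormone-sensing list averaged 4.07 to 4.18 in GFP-positive and 4.53 to 4.72 in control basal arrays. For GFP-positive basal minus Sca1-positive luminal effects, the differences were -2.44 for Cebpd (adjusted p = 0.0203), -1.74 for Lcn2 (adjusted p = 0.00418), -0.95 for Junb (adjusted p = 0.0262) and -1.91 for the basal marker Krt5 (adjusted p = 0.0191). Control basal cells were already high in Lcn2 (11.51) and Krt5 (10.55), and the part of the starting levels in these differences was not tested.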

How the results depend on the processing

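No difference with an unadjusted p under 0.05 and no named pathway call turned its sign under any alternative run. Among differences short of that, the other probe set turned Socs2 in GFP-positive against GFP-negative basal cells (0.28, against -0.35) and Socs3 in mutant against control Sca1-positive luminal cells (-0.14, against 0.23). For the 9 member calls, 102 of 114 alternatives kept the call and 12 lost it, and for 26 further member differences with an unadjusted p under 0.05, 37 of 378 gained one. Counts of members called moved as follows, and the cause was not tested. In GFP-positive against control basal cells, 1 member was called and 2 with the mean of probe sets, 0 with only the compared arrays, and 1 to 2 on leaving out 1 array. In GFP-positive against GFP-negative basal cells, 0 became 1 with quantile normalization or the filter on dim genes (12579 genes kept), and 0 to 2 without 1 array. In mutant against control Sca1-negative luminal cells, 0 became 1 with array weights. For control basal against Sca1-negative luminal cells, 1 became 2 with quantile normalization, 3 with the dim filter, 3 with the replicate block, 3 without the pair of narrow arrays, and 1 to 2 without 1 array. Against Sca1-positive luminal cells, 2 became 4 with quantile normalization or the dim filter, 3 with the mean of probe sets or the replicate block, and 2 to 3 without 1 array. For GFP-positive basal against mutant Sca1-negative luminal cells, 0 became 1 with the mean of probe sets or array weights. Against mutant Sca1-positive luminal cells the count was 2 to 4 without 1 array. For mutant Sca1-positive against Sca1-negative luminal cells, 2 became 1 with the replicate block or without the narrow pair, 3 with array weights, and 0 to 2 without 1 array. For the interaction of basal and Sca1-positive luminal effects, 0 became 1 with the dim filter, and 0 to 1 without 1 array. The similarity of Cish and Npw moved to 0.63 without the 2 farthest arrays. Of 32 pathway gene calls, 17 held under every alternative, among them those of Lifr, Il6st and Ghr.

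Same-numbered arrays deviated together weakly at most (r of -0.05 to 0.13 over 30 pairs, 1 of them over 0.1, and 0 of 11 comparisons with every pair over 0.1), so the number was not treated as pairing samples. Own numbers still matched best in 3 of 3 pairs between control luminal gates, GFP-positive and GFP-negative basal cells, and GFP-positive basal and mutant Sca1-negative luminal cells. They did so in 2 of 2 pairs of Sca1-positive luminal cells by genotype, and in no other comparison for every pair. Whether numbers mark shared sortings is not given in the sources used here. Under the replicate block the Stat5a difference between mutant luminal gates was 1.02 (adjusted p = 0.0582), and the Gjb2 call in Sca1-negative luminal cells was lost.

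Counts over all genes moved by more than 1.5 times. With only the compared arrays they were 276 (843 in the fit of all 7 groups) for GFP-positive against control basal cells, 134 (648) for GFP-positive against GFP-negative basal cells, 0 (32) for GFP-negative against control basal cells, 12 (45) for Sca1-positive luminal cells by genotype, 43 (152) between control luminal gates and 124 (218) for the basal against Sca1-positive interaction. With array weights they were 819 (378) for Sca1-negative luminal cells by genotype, 75 (45) for Sca1-positive, 10 (32) for GFP-negative against control basal cells, 231 (152) between control luminal gates, 1493 (813) between mutant luminal gates and 72 (28) for the luminal interaction. Without 1 array, counts went as low as 248, 19, 82, 1322, 390 and 117 where 378, 45, 152, 2125, 813 and 218 were called, and as high as 63 and 46 where 32 and 28 were. Low signal limits Socs1 and Stat5b, whose mean levels lie at the percentiles 64.7 and 65.5 of all genes, and the 2 arrays of mutant Sca1-positive luminal cells limit that group.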
